A study of Mus musculus with 2 samples.

Results

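The granins and the enzymes and chaperones that process prohormones were followed here across cells of the mouse small intestine. The 10 members were taken by gene symbol from a gene list of 32285 rows, and each symbol matched 1 row. They were the granins Chga, Chgb, Scg2, Scg3 and Vgf, the prohormone convertases Pcsk1 and Pcsk2, the carboxypeptidase Cpe, and the convertase partners Scg5 and Pcsk1n. The rule itself used only symbols and no measured value.

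Peptide hormones are made as long precursors that are cut and trimmed while they are packed into dense-core granules. Granins are acidic proteins that aggregate in the secretory pathway and help to form these granules, and several of them are themselves cut into peptides. The convertases PC1/3 (Pcsk1) and PC2 (Pcsk2) cut at pairs of basic residues, and carboxypeptidase E (Cpe) removes the basic residues left behind. Scg5 encodes 7B2, the chaperone of PC2, and Pcsk1n encodes proSAAS, which can inhibit PC1/3. In the gut, PC1/3 releases GLP-1 from proglucagon, whereas PC2 releases glucagon from the same precursor in pancreatic alpha cells.

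The cells came from 2 libraries of single-cell RNA-Seq, each 1 pool of the entire small intestine of 4 to 5 mice, which were 4 to 6 weeks old, with the adjoining pancreas dissected away. WT mice carried Neurog3Cre and the Rosa26tdtomato reporter, so that cells descended from Neurog3-expressing progenitors turned red and could be sorted. The NFKO mice carried the same Cre and reporter together with FoxO1 f/f, so that recombination should remove FoxO1 from those same cells. Both groups therefore hold Cre and reporter, and neither holds an unsorted or Cre-free control. Because the Cre is driven by Neurog3, other cells of these mice should keep FoxO1, and because mice were pooled, differences between mice cannot be seen.

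Filters on genes, UMIs, mitochondrial share and likely doublets kept 3003 cells of WT and 5292 labelled NFKO, whose medians were 16922 and 16778 UMIs (unique molecular identifiers, each standing for 1 captured RNA molecule). Foxo1 was at 11.5 CPM in WT and 12.4 CPM in the library labelled NFKO over all kept cells, where CPM is UMIs per 1000000 UMIs. Its ratio was 1.08 (0.992 to 1.18) over all cells and 0.840 (0.732 to 0.965) in enteroendocrine-like cells, so the counts did not show the deletion and the second library is named by its label throughout. The kit counts transcript 3′ ends, which a deletion elsewhere in the gene may leave in place. The libraries also differed in sex: by Xist and Y-linked genes WT held 1806 male-typed and 0 female-typed cells, and the library labelled NFKO 272 and 4075. The heat-shock gene Hspa1a was at 297 CPM in WT and 23.7 CPM in the other library. The libraries shared 6 cell barcodes. With 1 library per group no test could be made, and every interval is a 95% interval that covers counting error only.

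Cells were clustered without the 10 members, so that their levels took no part in defining the groups. The enteroendocrine-like class (988 WT cells and 1854 labelled NFKO) carried 9 transcription factor and vesicle markers, among them Neurod1, Insm1 and Pax6, at 47.8 to 146-fold the level of non-endocrine cells. They were divided by their leading hormone gene into Gip-led (194 and 502 cells), Gcg-led (159 and 148), Pyy-led (36 and 88), Cck-led (15 and 78), Nts-led (36 and 35), Sst-led (37 and 108) and Ghrl-led (97 and 231) cells. Enterochromaffin-like cells, the serotonin makers, fell into a Tac1-high group (168 and 257) and a Tac1-low group (29 and 244), and 78 and 154 cells were endocrine progenitor-like with Neurog3 among their leading genes. The Tac1-low and Cck-led groups were mostly of the library labelled NFKO, so their WT values rest on few cells, and the Cck-led group was left out of orders and ratios that need 20 cells per library. The Sst-led group also met the marker count for goblet cells, the Tac1-low group that for enterocytes and the Ghrl-led group that for progenitors. Another 139 WT cells and 9 of the other library, with few UMIs each, stayed an unnamed sub-cluster within the endocrine class. Non-endocrine cells were goblet-like, Paneth-like, enterocyte-like, tuft-like, stem-like and cycling, 1659 and 2451 in all.

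Promoter sequence was available for 8 of the 10 members, all but Cpe and Vgf, as RefSeq windows on GRCm38.p6 with 250 bases upstream of the start. The cAMP response element, bound by CREB-family factors, is shown because 4 members carry a full or variant copy. Of these, Chga, Chgb and Pcsk1 were highest in enterochromaffin-like cells and Scg2 elsewhere. Pcsk1n, whose window held neither copy, and Vgf, without a window, were also highest in enterochromaffin-like cells of both libraries. Scg5, with neither copy, was highest there only in the library labelled NFKO, with an overlapping interval. A link between element and cell group was not tested. Each stretch is 30 bases in the direction of transcription, with the element in capitals. On GENCODE M21 the Chgb and Scg2 genes begin farther upstream, so their stretches lie inside the GENCODE gene.
Chga, chr12:102554886-102554915, plus strand: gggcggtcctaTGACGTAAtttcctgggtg
Chgb, chr2:132781559-132781588, plus strand: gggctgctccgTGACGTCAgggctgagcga
Scg2, chr1:79440076-79440105, minus strand: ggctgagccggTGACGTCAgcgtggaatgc
Pcsk1, chr13:75089768-75089797, plus strand: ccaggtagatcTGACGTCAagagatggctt

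TGACGTCA, which reads the same on both strands, stood in the upstream 250 bases of Chgb, Scg2 and Pcsk1 and of 1.55% of all 32851 windows. TGACGTAA or its reverse complement TTACGTCA stood in that of Chga and of 0.447% of windows. The elements stood 44 (Chga), 72 (Chgb), 68 (Scg2) and 78 (Pcsk1) bases before the start. The shorter core TGACGT, which both contain, was also found for Scg5 and in 6.47% of windows, while the upstream windows of Scg3, Pcsk2 and Pcsk1n held none of these letters on either strand. All 10 members are protein-coding genes of GRCm38, and Chgb, Pcsk2 and Scg5 share chromosome 2. Pcsk1n is the X-linked member, on chromosome X from 7919822 to 7924410, plus strand.

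The first comparison asked where the members are expressed. In enteroendocrine-like cells Chgb was the most abundant, at 16801 CPM (16726 to 16877) in WT and 13114 CPM in the library labelled NFKO. Chga was at 2154 and 2526 CPM, Cpe at 1310 and 1285, Scg2 at 800 and 713, and Pcsk1 at 529 and 487. Scg3 was at 239 and 309 CPM, Pcsk1n at 215 and 346, Scg5 at 155 and 298, and Vgf at 38.6 and 41.8. Pcsk2 was nearly missing, at 2.12 and 5.77 CPM. Because UMIs count molecules at 1 end, these levels can be compared between genes without a correction for length.

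Of the 10 members, 9 were at least 2-fold higher in enteroendocrine-like than in non-endocrine cells of both libraries with at least 100 UMIs, against 35.8% of all genes tested. For these 9 the difference ran from 31.8-fold (25.5 to 40.0) for Vgf in the library labelled NFKO to 484-fold (396 to 598) for Scg2 in WT. Pcsk2 missed the count minimum in WT, with 24 UMIs in 988 endocrine cells and 2 in 1659 non-endocrine cells. When every cell was thinned to 2000 UMIs, the median enteroendocrine-like cell held transcripts of 4 members in WT and of 5 in the other library, and the median non-endocrine cell 0 in both. At least 3 members were found in 84.6% (82.1 to 86.8) and 87.5% (85.9 to 89.0) of enteroendocrine-like cells, against 0.909% (0.510 to 1.49) and 1.46% (1.02 to 2.02) of non-endocrine cells. The share was lower in Ghrl-led cells (63.9% and 72.8%) and lowest in progenitor-like cells (16.7% and 29.4%), whose medians were 1 and 2 members.

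**Figure D1:**
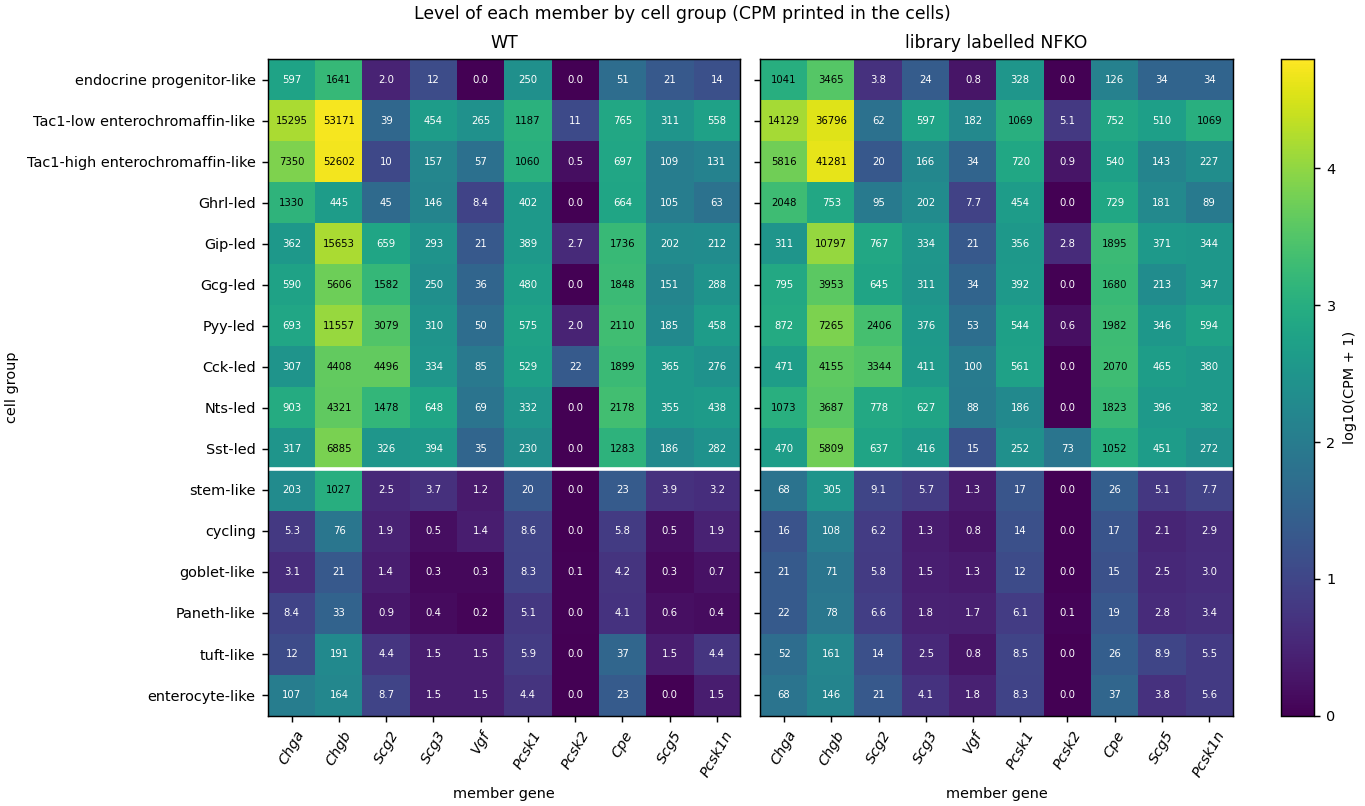
Level of each member (columns) in each cell group (rows), WT at left and the library labelled NFKO at right; the number printed is CPM and the colour is log10(CPM + 1). The 10 endocrine groups are above the white line and the 6 non-endocrine groups below it; Chgb reached 53171 CPM in WT Tac1-low enterochromaffin-like cells, and the WT stem-like value of 1027 CPM was the highest of any member below the line.

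Among the granins, chromogranin B and chromogranin A marked the enterochromaffin-like cells. Chgb was at 53171 CPM (52320 to 54032) in WT and 36796 CPM in the library labelled NFKO in the Tac1-low group, and at 52602 (52283 to 52922) and 41281 CPM in the Tac1-high group. The WT intervals of both groups overlapped, so their order was not detectable there. Chgb followed in Gip-led cells with 15653 and 10797 CPM and in Pyy-led cells with 11557 and 7265 CPM. It was lowest in Ghrl-led cells, with 445 CPM (408 to 484) and 753 CPM (724 to 782), 119-fold and 54.8-fold below the highest group.

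Chga had the same cells at its top and another order below them. It was at 15295 CPM (14840 to 15761) in WT and 14129 CPM in the library labelled NFKO in Tac1-low cells, and at 7350 and 5816 CPM in Tac1-high cells. Ghrl-led cells came next with 1330 (1265 to 1397) and 2048 CPM. Gip-led cells, next after the enterochromaffin-like groups for Chgb, were near the bottom for Chga, with 362 (339 to 386) and 311 (299 to 324) CPM. WT Sst-led cells at 317 CPM (257 to 386) did not differ from them beyond the intervals.

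The ratio of Chgb to Chga UMIs set the groups apart. Gip-led cells held 43.2 Chgb UMIs for each Chga UMI in WT (40.5 to 46.2) and 34.7 in the other library (33.3 to 36.1). Tac1-high cells held 7.16 and 7.10, and progenitor-like cells 2.75 and 3.33. Ghrl-led cells, makers of ghrelin, were the only endocrine group of the 10 with more Chga than Chgb, at ratios of 0.335 (0.303 to 0.369) and 0.368 (0.351 to 0.384). Within a group the ratio differed between libraries by more than counting error in, for example, Gcg-led cells (9.51 and 4.97), although the same ends of the scale were held in both.

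Secretogranin II (Scg2), the precursor of secretoneurin, ran the other way. It was at 10.1 CPM (6.16 to 15.6) in WT and 20.2 CPM (15.7 to 25.5) in the library labelled NFKO in Tac1-high cells and at 39.3 (19.6 to 70.4) and 62.1 CPM in Tac1-low cells, the groups with most Chgb. Pyy-led cells held 3079 (2927 to 3237) and 2406 CPM, and Cck-led cells 4496 (4224 to 4782, 15 cells) and 3344 CPM. In WT, Gcg-led cells at 1582 CPM and Nts-led cells at 1478 CPM did not differ beyond their intervals. Thinned to 2000 UMIs, 97.2% and 94.3% of Pyy-led cells held an Scg2 UMI, against 2.38% and 2.79% of Tac1-high cells.

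**Figure D2:**
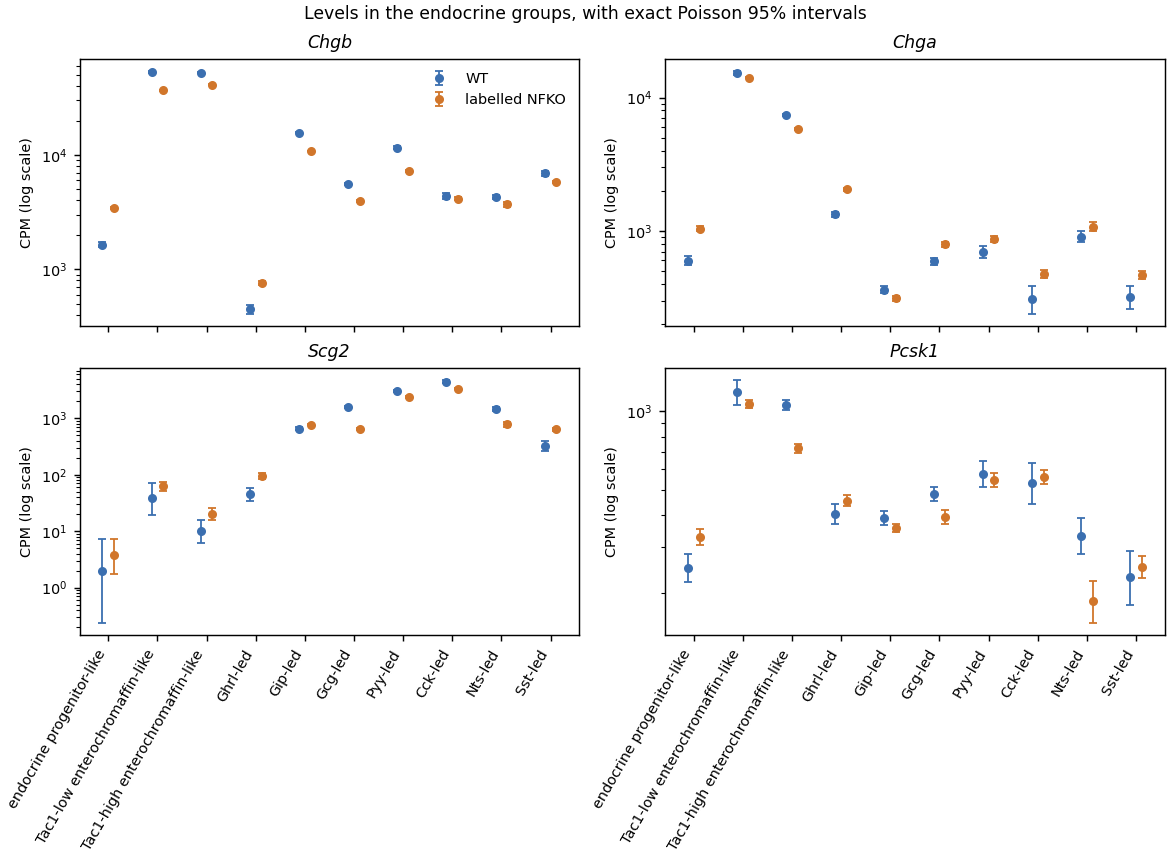
Levels of Chgb, Chga, Scg2 and Pcsk1 in CPM on a log scale (y) across the 10 endocrine groups (x), WT in blue and the library labelled NFKO in orange; points are UMI sums per group and bars are exact Poisson 95% intervals for counting error. Chgb and Chga peak in the enterochromaffin-like groups where Scg2 is between 10.1 and 62.1 CPM, and Pcsk1 spans a much narrower range than the other 3.

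Secretogranin III (Scg3), which binds other granins at the granule membrane, varied least among the granins across the groups other than progenitor-like cells. It was highest in Nts-led cells, with 648 CPM (579 to 724) in WT and 627 CPM (567 to 693) in the library labelled NFKO. Tac1-low cells held 454 and 597 CPM, while Tac1-high cells held 157 and 166 CPM and Ghrl-led cells 146 and 202. The Tac1-low group thus held more Scg3, with intervals that did not overlap, than the Tac1-high group in both libraries. Vgf, a granin-like precursor known from neurons, was highest in Tac1-low cells, with 265 CPM (208 to 332) and 182 CPM (165 to 200), and reached 57.5 and 34.5 CPM in Tac1-high cells. Gip-led cells held 20.7 and 20.6 CPM of Vgf, and Ghrl-led cells 8.36 and 7.69. No Vgf UMI was seen in 78 WT progenitor-like cells, where 3 UMIs would have been 2.96 CPM.

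Pcsk1 had the narrowest range of the members when progenitor-like cells were counted. From the highest to the lowest of 9 groups it ranged 5.15-fold in WT and 5.74-fold in the library labelled NFKO, whereas Chgb ranged 119-fold and 54.8-fold. Without progenitor-like cells Pcsk1 kept its range, and Cpe (3.28-fold and 3.67-fold), Scg5 (3.37-fold and 3.57-fold) and Scg3 (4.43-fold and 3.77-fold) had narrower ones. The highest values were 1187 (1062 to 1322) and 1069 CPM in Tac1-low cells and 1060 and 720 CPM in Tac1-high cells. Gcg-led cells, in which PC1/3 is known to cut proglucagon, held 480 (451 to 510) and 392 (368 to 418) CPM. Progenitor-like cells already held 250 (221 to 283) and 328 (305 to 352) CPM, and a Pcsk1 UMI was present in 38.5% and 37.3% of them after thinning (88.5% and 91.6% unthinned, at medians of 12735 and 15407 UMIs), against 1.82% and 2.50% of non-endocrine cells after thinning. WT Sst-led cells at 230 CPM did not differ from WT progenitor-like cells beyond the intervals.

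At full depth Pcsk2 was seen in 16 of 988 WT and 38 of 1854 enteroendocrine-like cells of the library labelled NFKO (0.305% and 0.439% after thinning), and 15 and 35 of these also had Pcsk1. Gcg-led cells held 0 Pcsk2 UMIs among 159 WT cells and 0 among 148 cells of the other library, where 3 UMIs would have been 1.37 and 1.23 CPM. The same Gcg-led cells held 1052 and 959 UMIs of Pcsk1. Over all kept cells Pcsk2 had 26 WT UMIs against 282 in the library labelled NFKO, and 4 cells of the latter, chosen after their values were seen, held all but 46 of the 282. Outside those 4 cells Pcsk2 was at 0.330 CPM in WT and 0.423 CPM in the library labelled NFKO, with at most 5 UMIs in a WT cell and 3 in a cell of the other library.

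Those 4 cells had strong and unlike hormone profiles. The highest, with 117 Pcsk2 UMIs, lay in an unnamed cluster of low UMI counts and held 7544 Gcg UMIs and 0 of Pcsk1. The other 3, with 71, 30 and 18 Pcsk2 UMIs, were Sst-led and held 2781, 6153 and 7329 Sst UMIs with 7, 12 and 23 of Hhex, a factor of delta cells, and 6, 5 and 10 of Pcsk1. Iapp, known from islets and also found in the Sst-led group, had 125, 121, 351 and 316 UMIs in the 4 cells, and none held an Ins1 or Ins2 UMI. They were all of the library labelled NFKO, and their tissue of origin was not tested.

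Cpe was highest in the cells led by peptide hormones other than ghrelin. It was at 2178 CPM (2049 to 2312) in WT and 1823 CPM in the library labelled NFKO in Nts-led cells, 2110 and 1982 CPM in Pyy-led cells, 1848 and 1680 CPM in Gcg-led cells and 1736 and 1895 CPM in Gip-led cells. The WT intervals of Nts-led and Pyy-led cells overlapped. The enterochromaffin-like groups lay between 540 and 765 CPM and Ghrl-led cells at 664 and 729 CPM. Progenitor-like cells held 51.3 (38.3 to 67.2) and 126 (112 to 141) CPM, so that Cpe, unlike Pcsk1, was low there.

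The convertase partners followed the mature cells too. Scg5 was highest in WT Nts-led cells at 355 CPM (304 to 412), which overlapped the 311 CPM (249 to 384) of Tac1-low cells. In the library labelled NFKO the 510 CPM (481 to 539) of Tac1-low cells overlapped the 465 CPM (433 to 498) of Cck-led and the 451 CPM (419 to 484) of Sst-led cells. Gcg-led cells held 151 and 213 CPM of Scg5 although Pcsk2, whose protein 7B2 serves, had 0 UMIs there. Pcsk1n was highest in Tac1-low cells, at 558 (474 to 652) and 1069 CPM (1028 to 1112), and in Pyy-led cells, at 458 and 594 CPM. Tac1-high cells held 131 and 227 CPM and Ghrl-led cells 62.7 and 89.4 CPM of Pcsk1n. Both partners were lowest in progenitor-like cells, at 20.7 and 33.8 CPM for Scg5 and 13.8 and 34.2 CPM for Pcsk1n.

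The order of the groups was much the same in both libraries. The highest of 9 groups was the same for 6 of 10 members, namely Chga, Scg2, Scg3, Vgf, Pcsk1 and Pcsk1n. Spearman's rho between the libraries over the 9 groups, given as a description, lay between 0.900 and 0.983 for all members but Pcsk2, for which it was 0.591. Scg2, Scg3, Vgf, Cpe, Scg5 and Pcsk1n were lowest in progenitor-like cells in both libraries, and Chga, Chgb and Pcsk1 were not.

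The second comparison set the library labelled NFKO against WT within enteroendocrine-like cells. With at least 100 UMIs over both libraries, 3 of 10 members were at least 1.5-fold higher, Scg5, Pcsk1n and Pcsk2, where 4.97% of 11601 genes were. Pcsk2 reached that minimum only through the library in which it was high, with 24 and 162 UMIs, so the count that does not rest on this is 2, Scg5 and Pcsk1n. None was at least 1.5-fold lower, where 5.03% of genes were. The members' median log2 ratio was 0.17 and that of all genes tested -0.02, and as a ratio it was 1.13, or 0.986 with the shares of the endocrine groups held equal in both libraries. All 5 granins, Pcsk1 and Cpe lay between 0.781 for Chgb (0.776 to 0.785) and 1.29 for Scg3 (1.24 to 1.35), and Cpe was at 0.981 (0.962 to 1.00).

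Scg5 was at 155 CPM (148 to 163) in WT and 298 CPM (292 to 305) in the other library, which gave a ratio of 1.92 (1.82 to 2.02). It was above 1 in all 9 endocrine groups with 20 cells in each library and past 1.5-fold in 6 of them, namely Sst-led (2.43), Pyy-led (1.87), Gip-led (1.84), Ghrl-led (1.72), Tac1-low (1.64) and progenitor-like cells (1.63). Of these 6, only Gip-led and Ghrl-led cells had at least 100 WT UMIs of Scg5. Sst-led, Pyy-led and Tac1-low cells had 58, 92 and 87, so they passed the minimum through the library in which Scg5 was high. The progenitor-like ratio, from 21 and 80 UMIs, passed in the same way and had an interval that included 1 (0.998 to 2.78). In the larger Gip-led sub-cluster alone the ratio was 1.49 (1.34 to 1.66). The smaller Gip-led sub-cluster held 19 WT and 253 other cells, so the Gip-led ratios mix both. Among male-typed enteroendocrine-like cells (553 WT, 99 labelled NFKO) the Scg5 ratio was 2.24 (2.02 to 2.49). Of these male-typed cells 12 WT and 20 labelled NFKO were Tac1-low, so the mixtures of groups were unlike.

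Pcsk1n was at 215 CPM (206 to 223) and 346 CPM (340 to 353), a ratio of 1.61 (1.54 to 1.69). It was past 1.5-fold in Tac1-low (1.92), Tac1-high (1.74) and Gip-led cells (1.62) and was 0.871 (0.721 to 1.05) in Nts-led and 0.966 (0.768 to 1.23) in Sst-led cells. In the larger Gip-led sub-cluster it was 1.31 (1.18 to 1.46). Among male-typed cells the ratio of this X-linked gene was 2.30 (2.10 to 2.51). Tac1-low cells gave 83 of the 1503 WT and 286 of the 735 other male-typed UMIs, and the part of this in the ratio was not tested. With the shares of the endocrine groups held equal in both libraries it was 1.37, below the 1.5-fold limit. That weighting included the unnamed sub-cluster, at 281 CPM of Pcsk1n in WT and 0 UMIs in 9 cells of the other library. It took the Gip-led cells as a single group, and the part of both in this value was not tested.

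Pcsk2 was at 2.12 CPM (1.36 to 3.15) and 5.77 CPM (4.92 to 6.73), a ratio of 2.72 (1.77 to 4.37). In the library labelled NFKO 73.5% of its UMIs lay in 3 cells, all Sst-led, and without the 3 highest cells of each library the ratio was 1.24. Sst-led cells held 0 UMIs in WT and 72.6 CPM in the library labelled NFKO, which is 7.57-fold the 9.60 CPM that 3 UMIs in the WT group would give. The exact interval of their ratio began at 6.06. All but 3 of the 122 UMIs behind the 72.6 CPM lay in those 3 cells.

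**Figure D3:**
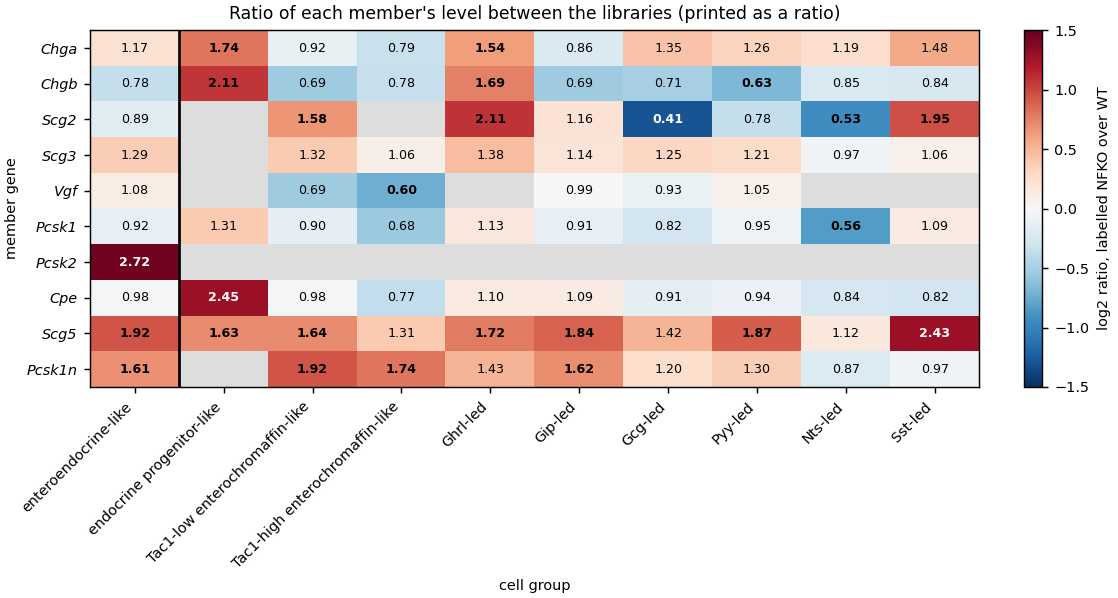
Ratio of each member's level (rows), library labelled NFKO over WT, in all enteroendocrine-like cells (first column) and in 9 endocrine groups; colour is the log2 ratio, bold marks ratios past 1.5-fold either way, and grey cells had under 100 UMIs over both libraries or 0 in WT. Scg5 is above 1 across its row, Chgb is below 1 except in progenitor-like (2.11) and Ghrl-led (1.69) cells, and Scg2 runs from 0.408 to 2.11.

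**Figure D4:**
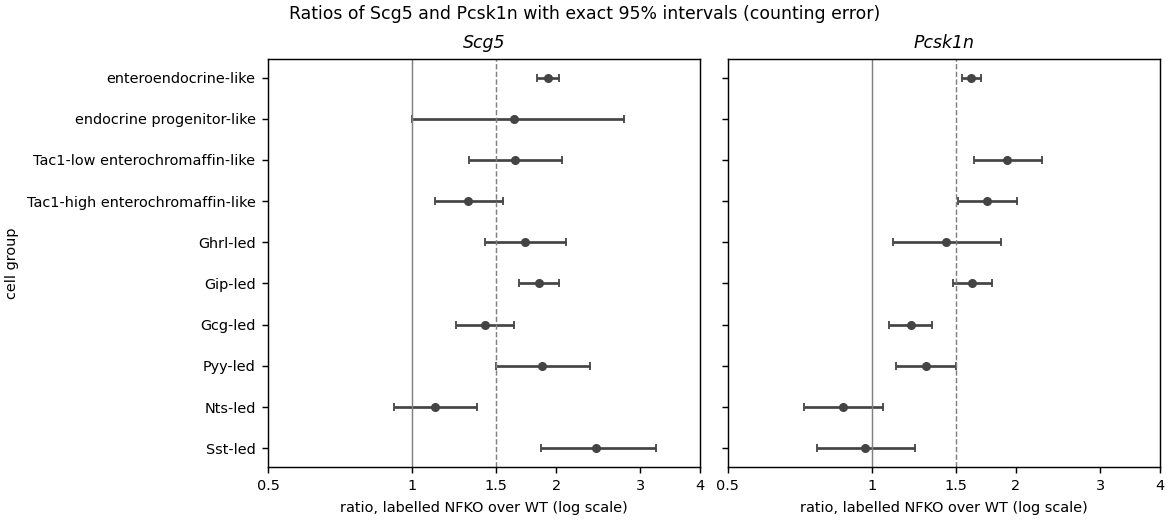
Ratios of Scg5 (left) and Pcsk1n (right), library labelled NFKO over WT, on a log scale (x) by cell group (y); points are ratios of UMI sums and bars exact conditional binomial 95% intervals for counting error. The solid line is at 1 and the dashed line at 1.5; Scg5 reaches 2.43 in Sst-led cells and Pcsk1n 1.92 in Tac1-low cells.

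The other members differed by group. Chgb was lower in the library labelled NFKO in 7 of 9 groups, from 0.629 (0.609 to 0.649) in Pyy-led to 0.853 (0.804 to 0.906) in Nts-led cells, and only the Pyy-led value was past 1.5-fold, which became 0.766 (0.738 to 0.796) without the 3 highest cells of each library. It was higher in Ghrl-led cells, 445 and 753 CPM with a ratio of 1.69 (1.54 to 1.86), and in progenitor-like cells, 1641 and 3465 CPM with a ratio of 2.11 (upper bound 2.23). In Ghrl-led cells of the library labelled NFKO 29.6% of the Chgb UMIs lay in 3 cells, and without the 3 highest cells of each library the ratio was 1.37 (1.24 to 1.52), short of 1.5-fold. The share of Ghrl-led cells with a Chgb UMI after thinning was 51.5% in WT and 50% in the other library. Gip itself took 260315 CPM in the smaller Gip-led sub-cluster, which lowers the CPM of every other gene there, and in the larger Gip-led sub-cluster the Chgb ratio was 0.813 (0.803 to 0.824).

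Progenitor-like cells had 4 of 5 members with enough UMIs past 1.5-fold higher, where 7.94% of genes were, and 0 lower, where 2.33% were. Chga was at 597 and 1041 CPM (1.74, 1.59 to 1.91) and Cpe at 51.3 and 126 CPM (2.45, 1.82 to 3.36), besides Chgb and Scg5. Only Chga and Chgb had at least 100 UMIs in WT, since Cpe had 52 and 298 UMIs and Scg5 21 and 80. Without the 3 highest cells of each library Scg5 fell under the minimum. Pcsk1 in these cells had a ratio of 1.31 (1.13 to 1.51). Ghrl-led cells had 4 of 8 members past 1.5-fold higher, namely Chga, Chgb, Scg2 and Scg5, where 5.04% of genes were, and 0 lower, where 3.92% were. Of these 4, Scg2 alone had under 100 UMIs in WT, with 54 and 335. Without the highest cells Chga stayed past 1.5-fold in both groups (1.60 in Ghrl-led, 1.86 in progenitor-like), whereas in the enterochromaffin-like groups Chga had ratios of 0.924 (0.895 to 0.954) in Tac1-low and 0.791 (0.775 to 0.808) in Tac1-high cells.

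Scg2 differed in opposite directions between groups, a difference that was not tested. It was at 1582 and 645 CPM in Gcg-led cells, a ratio of 0.408 (0.384 to 0.433), and at 1478 and 778 CPM in Nts-led cells, 0.526 (0.468 to 0.591). In Sst-led cells it was at 326 and 637 CPM, 1.95 (1.59 to 2.42), and in Ghrl-led cells at 45.2 and 95.4 CPM, 2.11 (1.58 to 2.87). In Gcg-led cells it was the 1 member of 9 past 1.5-fold lower, where 3.4% of genes were, with 0 higher, where 5.48% were. In Nts-led cells Scg2 and Pcsk1 (0.560, 0.437 to 0.715) were the 2 of 8 past 1.5-fold lower, where 7.4% were, with 0 higher, where 9.27% were. The WT Sst-led cells were shallower, with a median of 7013 UMIs and 6.52% mitochondrial UMIs against 15563 and 2.47%, and the part of this in the Sst-led ratios was not tested. In Tac1-high cells Vgf had a ratio of 0.600 (0.460 to 0.783), 1 of 8 members past 1.5-fold lower where 3.8% of genes were. Pcsk1n was the 1 that was higher, where 5.41% were. The Vgf ratio was 0.958 (0.680 to 1.35) in the smaller Tac1-high sub-cluster. In the larger it was 0.406 (0.260 to 0.629), from 50 and 39 UMIs, under the minimum. In Gip-led cells 2 of 9 members were past 1.5-fold higher and 0 lower, where 3.15% and 8.22% of genes were. Within the larger Gip-led sub-cluster alone 0 of 9 were higher and 1 was lower. That member was Scg2, with a ratio of 0.616 (0.572 to 0.662) there, against 1.16 over all Gip-led cells. In Sst-led cells 3 of 9 were higher and 0 lower, where 12.4% and 11.9% of genes were. Of these 3, Pcsk2 (0 and 122 UMIs) and Scg5 (58 and 757) reached the minimum only through the library in which they were high. In Tac1-low cells 3 of 9 were higher and 0 lower (16.1% and 5.41% of genes). There Scg2 (11 and 145 UMIs) and Scg5 (87 and 1191) were counted in the same way, and the Scg2 interval included 1 (0.856 to 3.23). In Pyy-led cells it was 1 of 9 and 1 (7.03% and 8.38%), with Scg5 at 92 and 614 UMIs. The shares in these groups were nearer to those of all genes. The median log2 ratio of all genes was itself 0.14 in Tac1-low, 0.11 in progenitor-like and -0.12 in Gip-led cells. Set against that median, the members' ratios would be lower in Tac1-low and progenitor-like cells and higher in Gip-led cells by as much.

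Non-endocrine cells held low levels of the members. In goblet-like cells Chgb was at 20.8 CPM in WT and 71.5 CPM in the library labelled NFKO, and Chga at 3.06 and 21.5 CPM. As a share of the enteroendocrine-like level of the same library, the members lay at a median of 0.263% and 0.851% in goblet-like cells. The median was 0.163% and 0.682% for the hormone genes, Tac1 and Sct among them. Single hormone genes reached 3.84% and 5.70%, and the part of free RNA in these levels was not tested. The goblet-like ratios were 7.02 (5.36 to 9.35) for Chga and 3.44 (3.09 to 3.84) for Chgb, 2 of the 5 members of 6 past 1.5-fold higher, where 6.55% of genes were, with 0 lower, where 5.14% were. Of these 5, Chgb alone had at least 100 UMIs in WT, where Chga, Scg2, Cpe and Pcsk1n had 58, 27, 80 and 14. The libraries filled unlike goblet-like clusters. A cluster led by Edn2, Areg and Hspa1a held 598 WT and 20 other cells, another 160 and 719, and another 43 and 743. The part of this in the ratios was not tested. The hormone gene Gip was also at 42.1 and 443 CPM in non-endocrine cells.

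Pcsk1 differed less between the libraries. It was at 8.33 (7.08 to 9.73) and 11.5 (10.3 to 12.8) CPM in goblet-like cells, a ratio of 1.38 (1.14 to 1.68), or 1.57% and 2.36% of its enteroendocrine-like level, within the range of the hormone genes. It was at 9.86 (9.07 to 10.7) and 10.9 (10.1 to 11.7) CPM over all non-endocrine cells, a ratio of 1.11 (0.989 to 1.24). Over the same cells 6 of 9 members were past 1.5-fold higher, where 12.7% of genes were, with Scg2 at 4.54 (3.64 to 5.72), Pcsk1n at 2.96 and Scg5 at 2.42. Of these 6, Cpe alone had at least 100 UMIs in WT, where Scg2, Scg3, Vgf, Scg5 and Pcsk1n had 96, 68, 31, 76 and 76. Chga and Chgb were the 2 that were lower, at 0.546 and 0.405, where 4.39% of genes were.

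Most of the WT level of both lay in stem-like cells, where Chgb was at 1027 CPM (1010 to 1044) and Chga at 203 CPM, against 305 and 67.7 CPM in the library labelled NFKO. Of the 278 WT stem-like cells, 6 held as many Chgb UMIs as all the others together, from 782 to 2873 each. The same 6 cells, chosen after their values were seen, held 111 to 244 UMIs of Tac1, 23 to 65 of Tph1, the serotonin-making enzyme, and 5 to 35 of Neurod1, of which the median other stem-like cell held 0. They also held 10 to 300 UMIs of Olfm4, a stem cell gene, and 18911 to 83982 UMIs in all. Whether these barcodes held 1 or 2 cells was not tested.

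Cells that stayed unnamed also held the members. An unnamed cluster with Nts as its leading hormone and few UMIs per cell, 46 WT and 144 other cells, held the members at a median of 73.7% and 124% of the enteroendocrine-like level. It had Scg5 at 91.4 and 477 CPM and Scg3 at 253 and 740 CPM, and it was not part of the enteroendocrine-like totals. The unnamed endocrine sub-cluster of 139 WT and 9 other cells held them at a median of 83.6% and 68.0%, and without it the counts of 3 members higher and 0 lower stayed the same.

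The members were set beside other genes of the same granules. Of 26 further genes of prohormone processing and granules, 22 had enough UMIs in enteroendocrine-like cells, and 2 were past 1.5-fold higher and 0 lower, where 4.97% and 5.03% of all genes were. They were Qpct, glutaminyl cyclase, at 66.8 and 117 CPM (1.75, 1.61 to 1.89), and Ece2, which had 17 and 84 UMIs, just over the minimum. Pam, which amidates peptides, was at 411 and 436 CPM, and the granule proteins Ptprn and Ptprn2 had ratios of 1.17 and 0.681. Of 26, 12 were at least 2-fold higher in enteroendocrine-like than in non-endocrine cells of both libraries, where 35.8% of all genes were. Of 13 prohormone genes that serve as substrates, 11 had enough UMIs, of which 5 were past 1.5-fold higher (Gip, Sst, Ghrl, Sct and Iapp) and 2 lower (Gcg at 0.444 and Tac1 at 0.582), beside the same 4.97% and 5.03% of all genes. The median ratio was 0.993 over the 22 processing genes and 1.36 over the 11 substrates, against 1.13 over the members.

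The gene whose pattern was most like each member's was found by Pearson's r of log2(CPM + 1) over 40 sums of cell groups and libraries, among 6965 genes that reached 50 CPM. It was Scn3a for Chgb (0.95), Syn2 for Chga (0.927), Smarca1 for Scg2 (0.951), Ap3b2 for Scg3 (0.980) and Kif1a for Vgf (0.957). For the enzymes it was Lrp11 for Pcsk1 (0.975), Pam for Cpe (0.977) and Meg3 for Pcsk2 (0.690), and for the partners Prnp for Scg5 (0.971) and Resp18 for Pcsk1n (0.964). These sums share libraries and the contrast between endocrine and non-endocrine cells, which alone gives high values. Among the members Scg3 was most like Cpe and Scg5 (0.980 for both), and Pcsk2 was the least like each of the other 9, at most 0.424.

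Cells of the library labelled NFKO with an Ins2 UMI were compared with the remaining cells after thinning to 2000 UMIs. Of 24 such cells, 4 were enteroendocrine-like, against 1818 of 4891 others, and WT had 0, so the shares compare unlike mixtures of cells. Pcsk1 was found in 16.7% (4.74 to 37.4) of them and in 23.8% of 4891 others, Cpe in 6 of 24 (9.77 to 46.7%) and 33.3%, and Chgb in 16.7% (4.74 to 37.4) and 45.8%. Pcsk2 was in 0 of 24, with an exact upper bound of 14.2%. The intervals for Pcsk1 and Cpe included the shares of the other cells, and that for Chgb lay below that share.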

How the data were processed

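The authors deposited raw UMI counts per gene and cell for each of 2 droplet libraries, made with Cell Ranger 5.0.1 and the mouse build mm10 per the submitters' processing notes, and no cell annotation was used here. The filter asked for at least 500 genes, 1000 UMIs and a mitochondrial share of no more than 25%, and removed 38.1% of 5051 WT and 25.3% of 7540 barcodes labelled NFKO, and 126 and 340 likely doublets were then removed by a score against simulated pairs. Cells were clustered with Seurat 5.3.0 (R 4.3.3; 2000 variable genes without the 10 members, Foxo1, insulin and sex-linked genes; 30 components, resolution 0.8), and endocrine cells were clustered again. Clusters were named by at least 3 listed markers or by their leading hormone gene. UMIs were summed per group and library and given as CPM with exact Poisson intervals, ratios with exact conditional binomial intervals and shares with Clopper-Pearson intervals (Python 3.11.15, scipy 1.17.1), and the ratios were tested on simulated data. Ratios needed 20 cells in each library, and calls needed 100 UMIs over both libraries and a 1.5-fold ratio (2-fold for endocrine against non-endocrine cells). Members per cell and, unless given as unthinned or at full depth, shares of cells were taken after thinning each cell to 2000 UMIs, without shallower cells, which kept 984 of 988 WT and 1822 of 1854 endocrine cells labelled NFKO. All members were named whatever they showed, and of the other lists the genes past the fold were named with a few further genes chosen after their values were seen. The members and lists were chosen with earlier results of these data known. Alternatives changed the cell filter, doublet removal, scaling, weights of cells, clustering, sex-typed cells and leading cells. The level of 1 further gene in single cells is not reported here.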

Additional observations from a re-analysis of the deposited data

Results flagged for a closer look

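For 3 members the ratio of the library labelled NFKO over WT was past 1.5-fold higher in one cell group and past 1.5-fold lower in another. Each had at least 100 UMIs over both libraries and an interval that did not include 1. With 1 library per group none of these differences was tested. Chga had a ratio of 7.02 in goblet-like cells and 0.333 in stem-like cells, and without the 3 highest cells of each library the ratios were 7.40 and 0.297. Chgb had a ratio of 3.44 in goblet-like and 0.297 in stem-like cells, and 4.07 and 0.216 without those cells. The goblet-like values rest on 58 WT UMIs for Chga and on levels near those of the hormone genes, and the WT stem-like values on few cells with Tac1 and Tph1, as described above. The goblet-like values also compare unlike mixtures of clusters between the libraries. Scg2 had a ratio of 7.11 in Paneth-like cells, from 20 and 100 UMIs, and 0.408 in Gcg-led cells, from 3469 and 1578 UMIs, and 7.67 and 0.387 without the highest cells.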

How the results depend on the processing

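No paired analysis was possible because each group was 1 library. Over the alternatives run, the count of members past 1.5-fold higher in enteroendocrine-like cells stayed between 2 and 4 and the count lower at 0. It was 4 with each cell given the same weight, which added Chga at 1.5-fold. It was 2 without the 3 highest cells of each library (Pcsk2 at 1.24) and with endocrine group shares held equal (Pcsk1n at 1.37, with the unnamed sub-cluster included). The median ratio of the members, 1.13, was 1.26 with each cell given the same weight and 0.986 with endocrine group shares held equal. Among male-typed cells Pcsk2 turned to 0.939, from 15 and 3 UMIs, Chga passed 1.5-fold at 2.17, and 8 members in place of 9 were past 2-fold above non-endocrine cells. Tac1-low cells gave 2084 of the 12916 WT and 3079 of the 5983 other Chga UMIs of male-typed cells. Scg5 lay between 1.68 and 2.24 and Pcsk1n between 1.37 and 2.30 over 13 alternatives, while Chga ran from 0.939 to 2.17 and Pcsk1 from 0.865 to 1.21, across 1. Of 23 group ratios past 1.5-fold, 19 stayed past it and over the UMI minimum without the 3 highest cells of each library, an alternative chosen after seeing the data. The highest group was the same in both libraries for 6 members, and for 4 when cells were grouped by the hormone gene with most UMIs. Leaving out a replicate was not possible, mice within a pool could not be told apart, and sex and heat-shock level cannot be told apart from the label. Pcsk2, at 26 WT UMIs in all, was the member most limited by depth.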

Other observations

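An unnamed cluster of 84 WT cells and 400 of the library labelled NFKO, with medians of 3652 and 1777 UMIs, lay outside both the endocrine and the non-endocrine class. Its members stood at a median of 1.24% of the enteroendocrine-like WT level and 15.5% of that in the other library, and the hormone genes at 0.686% and 11.6%. After thinning, at least 3 members were present in 2.86% (0.348 to 9.94) of the 70 WT cells and in 19.5% (13.7 to 26.4) of the 164 others.

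Within the Tac1-high enterochromaffin-like cells Chga differed between the sub-clusters. The larger, led by Tmem158 and Tac1, held 3466 and 3056 CPM of Chga, and the smaller, led by Slc18a2, the vesicular monoamine transporter, held 15875 and 14858 CPM. The Chga ratio between libraries was 0.882 (0.850 to 0.914) in the first and 0.936 (0.911 to 0.961) in the second, nearer to 1 than the 0.791 of both together.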
